A study of Mus musculus with 18 samples.

Results

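The genes described here encode subunits of the mitochondrial respiratory chain that are read from nuclear DNA, with some of their assembly factors. They were taken from the table of all libraries by symbol: every gene whose symbol starts with *Nduf*, *Uqcr*, *Cox4*, *Cox5*, *Cox6*, *Cox7*, *Cox8* or *Atp5*, or with *Sdh* followed by a letter from a to d. This rule found 94 of 18659 genes, and no measured value was used in it. Subunits whose symbols start otherwise are not among them. By the complex that gives them their names, 44 belong to complex I, 8 to complex II, 8 to complex III, 17 to complex IV and 17 to complex V. Of the 94, 73 are structural subunits, 13 are assembly factors, 7 are isoforms known from particular tissues and 1 (*Atp5s*) is a relative of a subunit.

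The libraries came from male E14 mouse embryonic stem cells (mESCs), a pluripotent line, grown in serum and LIF and depleted of ribosomal RNA before RNA-seq. Cells received for 24 h a pool of siRNAs along *Stag1*, a cohesin subunit gene (SP), siRNAs to its 3′ end (3p), 1 duplex siRNA to its 5′ end (5p) or enzymatically made siRNAs to the 5′ UTR read from a stem cell promoter of *Stag1* (SATS). The methods list the numbers of the 3p siRNAs among those of the SP pool, so SP and 3p are not independent reagents. The controls were a scrambled siRNA (scr), a luciferase siRNA and untreated cells. The methods list the luciferase siRNA (esiLuc) with the enzymatically made ones, like SATS and unlike scr. The part of the kind of siRNA in comparisons of SATS with scr was not tested. There were 16 libraries in 3 replicate sets: set 1 had 1 scr and 3 SP libraries (1a, 1b, 1c), set 2 had scr, SP, 3p, 5p, SATS and untreated, and set 3 had scr, SP, 3p, 5p, SATS and luciferase. The study's text calls the replicate libraries independent, but nothing in the labels says that the sets were separate cultures, so each p measures the spread between these libraries. All comparisons with scr share the same scr libraries.

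Oxidative phosphorylation passes electrons from NADH through complex I, or from succinate through complex II, by way of coenzyme Q to complex III and then by cytochrome c to complex IV, which reduces oxygen. Complexes I, III and IV pump protons across the inner mitochondrial membrane, and complex V, the ATP synthase, lets them back to make ATP. All complexes but complex II also hold subunits read from mitochondrial DNA, which were not analysed here. Pluripotent cells are known for a high rate of glycolysis, and the balance between glycolysis and respiration differs between the naive and primed states.

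The deposited values are reads per gene divided by 1 size factor per library and are called normalised reads below. The 4 libraries of set 1 held 1883691 to 4321867 reads outside *Rn45s*, the ribosomal precursor, against 25978759 to 36332493 in the 12 others, so values of set 1 carry more counting error. *Stag1* was at 17.3% to 32.8% of the scr library of its set under SP, 3p and 5p, at 49.7% and 50.5% under SATS, at 86.3% in untreated cells and at 104% under luciferase. The 8 mESC markers summed to 30117 to 64140 normalised reads. The 6 fibroblast markers summed to 2566 to 5637 in set 2, 358 to 560 in set 3 and 96.5 to 451 in set 1, with *Lum* at 0 to 1.44. The part of these markers in the results below was not tested.

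Sequences of some of the genes are given first. The gene called lower under 5p, *Ndufa5*, lies on the minus strand at chr6:24518666-24528013 (GRCm38, which is mm10). Its coding sequence holds the heptamer GTGGAAG 4 times, the letters that pair with bases 2 to 8 of the guide strand of the 5p duplex, taking the strand given in the methods as the sense strand. The stretches around the matches in transcript Ndufa5-201 (875 bases, GENCODE M21) are printed 5′ to 3′ with the heptamer in capitals. The first lies in exon 4 of 5 and the others in exon 5.
Match 1, chr6:24519206-24519212: cagggtggtgaaGTGGAAGaggtgatt
Match 2, chr6:24518780-24518786: gaaaatgttgaaGTGGAAGccatggga
Match 3, chr6:24518758-24518764: tgggagccattgGTGGAAGagccgcct
Match 4, chr6:24518735-24518741: gcctgctaaccaGTGGAAGtggccaat

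Of the 94 genes, 24 (25.5%) held the heptamer at least once in a coding transcript, against 38.3% of 16608 genes of the table. At least 2 matches were held by 3 of the 94 (3.19%), against 11%. At least 4 were held by 1 of the 94 (1.06%), *Ndufa5*, against 0.855%. The cut of 4 is the count of *Ndufa5* itself, so that *Ndufa5* reaches it was fixed by the choice. In the 3′ UTR alone, 7 of the 94 held it (*Atp5g1*, *Ndufaf1*, *Ndufaf4*, *Ndufb5*, *Ndufb8*, *Sdhaf3* and *Uqcr11*), against 12.9% of 16510 genes, and *Ndufa5*, with a 3′ UTR of 57 bases, did not. A match is a description of letters and not a site of action.

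Promoters, from 250 bases before to 50 after the start, were found for 79 of the 94 genes in RefSeq (GRCm38.p6). Both strands were searched for the cores of 3 factors known to bind promoters of respiratory genes and for 2 common motifs, none of which holds the letters of another (the NRF1 core overlaps its own reverse). The NRF1 core CGCATGCGC was held by 10 of the 79 (12.7%), against 1.95% of 27025 promoters and 3.31% of those of the table's genes. The Ets core CCGGAAG, bound by GABPA among others, was held by 20 (25.3%), against 9.93% and 15.9%, and the YY1 core AAGATGGCG by 8 (10.1%), against 1.64% and 2.73%. The GC box GGGCGG was held by 48.1%, against 38.2% and 61.6%, and the E box CACGTG by 8.86%, against 8.09% and 10.8%. Printed here are the promoters of *Ndufc1* and *Atp5j2*, which hold the YY1 core, and that of *Cox6a1*, which holds the NRF1 and Ets cores. *Ndufc1* and *Atp5j2* are among the genes called higher under SATS below, and *Cox6a1* is lower in set 3. Promoters of the other genes called under SATS are not printed. The part of the cores in any change below was not tested. Capitals mark the cores of NRF1, Ets factors and YY1, on either strand.
Ndufc1, chr3:51408906-51409205, minus strand: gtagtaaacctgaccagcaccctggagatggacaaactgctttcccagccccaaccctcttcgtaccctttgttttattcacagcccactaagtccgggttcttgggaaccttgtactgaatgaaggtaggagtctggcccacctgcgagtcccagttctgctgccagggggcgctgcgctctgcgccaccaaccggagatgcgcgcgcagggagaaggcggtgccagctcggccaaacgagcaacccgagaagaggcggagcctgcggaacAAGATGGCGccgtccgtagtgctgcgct
Atp5j2, chr5:145191492-145191791, minus strand: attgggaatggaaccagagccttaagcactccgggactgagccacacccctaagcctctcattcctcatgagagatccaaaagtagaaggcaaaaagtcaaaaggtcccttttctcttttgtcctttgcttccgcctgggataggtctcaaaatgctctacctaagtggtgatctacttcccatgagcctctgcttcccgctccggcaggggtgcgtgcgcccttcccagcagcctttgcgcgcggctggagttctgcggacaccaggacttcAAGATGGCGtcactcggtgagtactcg
Cox6a1, chr5:115348909-115349208, minus strand: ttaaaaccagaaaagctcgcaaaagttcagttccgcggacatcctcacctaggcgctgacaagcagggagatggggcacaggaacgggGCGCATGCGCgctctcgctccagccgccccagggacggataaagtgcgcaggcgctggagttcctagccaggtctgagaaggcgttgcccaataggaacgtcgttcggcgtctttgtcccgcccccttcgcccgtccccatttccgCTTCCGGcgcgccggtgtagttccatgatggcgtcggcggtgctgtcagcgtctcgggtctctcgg

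The respiratory chain was read at a high level in these cells. Reads on the 94 genes made up 0.837% to 0.960% of the reads outside *Rn45s* in the libraries of sets 2 and 3, and 0.651% to 0.804% in set 1. To compare genes, normalised reads were divided by the spliced length, and the scr libraries of sets 2 and 3 were averaged. The median was 768 per kb over the 94 genes and 952 per kb over the 73 subunits, against 68.8 per kb over all tested genes, 367 over mitochondrial ribosomal proteins, 1290 over proteasome subunits and 7531 over cytosolic ribosomal proteins. A total of 86 genes had a mean of at least 50 normalised reads. The 8 below it were *Ndufa4l2*, *Sdhaf3*, *Cox4i2*, *Cox7a1*, *Cox7b2*, *Cox8b*, *Cox8c* and *Atp5s*. In the plot of levels by complex, tissue isoforms lay at the bottom of complexes I and IV.

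**Figure D1:**
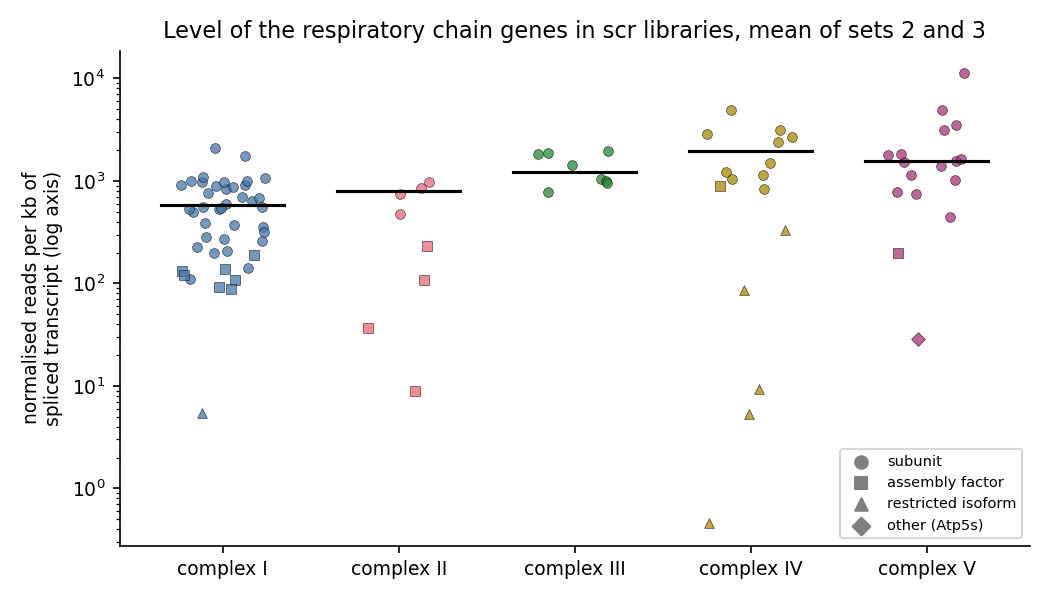
Each symbol is 1 gene, with its normalised reads per kb of spliced transcript (log axis), the mean of the scr libraries of sets 2 and 3. Bars are medians of the subunits, which run from 577 per kb in complex I to 1947 per kb in complex IV, and Cox8b, at 0, is not drawn.

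Within complex I the level per kb ran from 111 (*Ndufb2*) to 2096 (*Ndufa4*) over 36 subunits. *Ndufa4* was named for complex I and is now placed with complex IV. In complex II, whose 4 subunits carry electrons from succinate, *Sdha*, the flavoprotein, stood at 978 per kb and *Sdhc*, a membrane anchor, at 476. *Sdhb*, the iron-sulfur subunit, stood at 753 and *Sdhd*, the other anchor, at 845. In complex III the 8 subunits taken by the rule ran from 780 (*Uqcrb*, which contacts bound quinone) to 1973 (*Uqcrh*, the hinge protein). In complex V the range over 15 subunits was the widest, from 449 (*Atp5g1*) to 11232 (*Atp5b*, the catalytic beta subunit), and *Atp5b* had the highest level of the 94 genes.

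Of most subunits with several isoforms, 1 stood far above the others. *Cox4i1* stood at 4897 per kb in scr and *Cox4i2*, an isoform known from lung, at 5.27. *Cox6b1* stood at 3163 and *Cox6b2*, known from testis, at 330. *Cox7a2* stood at 1214 against 85.98 for *Cox7a1*, known from heart and muscle, and *Cox7b* at 1152 against 9.34 for *Cox7b2*. *Cox8a* stood at 2682, *Cox8c* at 0.458, with 0 to 6 reads per library, and *Cox8b*, another muscle isoform, had 0 reads in all 16 libraries, which allows up to 3 reads in each. The 3 genes that encode the same c subunit of the ATP synthase stood at 3530 (*Atp5g3*), 1846 (*Atp5g2*) and 449 per kb (*Atp5g1*), but 86.9% of the 75-base windows of *Atp5g2* are shared with transcripts of other genes, so that its level is uncertain. The same holds in part for *Atp5l* (63.4%), *Ndufb4* (35.2%), *Uqcrb* (29.1%), *Atp5h* (28.5%), *Atp5o* (27.7%) and *Ndufs3* (27.1%).

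The knockdowns were compared with scr to ask which respiratory genes follow the loss of *Stag1*. Under SATS the genes were higher as a group in both sets. Of the 93 genes tested, 84 had a value above 0 for the log2 fold change from scr, with a median of 0.24, where the median over all 16490 genes tested was -0.00. In limma without a block, the planned test, none of the 93 passed a Benjamini-Hochberg adjusted p of 0.05 (9 had an unadjusted p under 0.05), and 0% of all genes did. DESeq2 and edgeR on the recovered reads, without a block, also called 0 of the 93, here and in each other knockdown comparison below. The libraries of a set are alike beyond their siRNA, so the set was also entered as a block. In limma 7 of 93 genes then passed (46 unadjusted), all higher, against 2.64% of all genes (1.9% higher). In edgeR with the block 12 passed, all higher. The share of all genes that edgeR called is not given here, so that count has no background to be read against. In bulk RNA, fewer cells of a type and less RNA per cell cannot be told apart. From scr to SATS, the 6 fibroblast markers summed to 2826 and 3625 in set 2 and to 560 and 542 in set 3, and the 4 neural markers to 1626 and 1376 and to 1254 and 1010, where SATS was the lowest library of each set. The 8 mESC markers summed to 36180 and 35488 and to 35661 and 37996, and the 6 primitive endoderm markers to 265 and 319 and to 181 and 184. With the set as a block, limma called 0 of the markers of each list (2 mESC and 1 neural marker had an unadjusted p under 0.05), and their part in the result was not tested.

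The 7 genes that rose under SATS with the set as a block lie in complexes I, III, IV and V. *Cox6c*, an accessory subunit of complex IV (chr15:35925886-35938246), was at 851 normalised reads in scr and 1280 in SATS in set 2, and at 419 and 927 in set 3. Its log2 fold change was 0.87 ± 0.13 (SE, n = 2 per group, limma adjusted p = 0.0131). All SP, 3p and 5p libraries of a set lay between its scr and SATS values, at 1027 to 1197 in set 2 and 488 to 626 in set 3.

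*Uqcrb* of complex III (chr13:66900617-66905378) went from 499 to 638 in set 2 and from 335 to 686 in set 3, a log2 fold change of 0.69 ± 0.13 (limma adjusted p = 0.0220). SATS was its highest library in both sets, and the other libraries of sets 2 and 3, controls included, held 488 to 547 and 335 to 404. In set 1, *Uqcrb* was at 536 in scr and 704 to 765 in the 3 SP libraries, all above scr.

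*Atp5j2*, subunit f of the membrane part of the ATP synthase (chr5:145183698-145192062), went from 755 to 1163 in set 2 and from 402 to 743 in set 3 (log2 0.75 ± 0.14, limma adjusted p = 0.0209). In set 2 it was as high under 3p, at 1179, and in set 3 SATS was above all others. Untreated cells had 836 and luciferase 389.

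Of complex I, *Ndufc1*, *Ndufa1*, *Ndufa5* and *Ndufa4* rose, the first 3 of them accessory subunits around its catalytic core. *Ndufc1* (chr3:51404677-51408988) went from 274 to 374 in set 2 and from 279 to 433 in set 3 (log2 0.54 ± 0.10, limma adjusted p = 0.0209), and its scr values in sets 2 and 3 were the closest of the 7. *Ndufa4* (chr6:11900292-11907497) went from 1062 to 1326 and from 866 to 1705 (log2 0.65 ± 0.14, adjusted p = 0.0331). Its 3p library of set 2, at 1327, was as high as SATS. *Ndufa5*, whose values are given with 5p below, had 0.82 ± 0.17 (adjusted p = 0.0273).

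*Ndufa1*, on the X chromosome (chrX:37187588-37191163), was called against scr under 3 siRNAs. It was at 154 in scr, 205 in SP, 277 in 3p, 225 in 5p and 240 in SATS of set 2. In set 3 it was at 73.4, 78.7, 108, 107 and 117 in the same order. The log2 fold changes were 0.26 ± 0.13 under SP (limma adjusted p = 0.429), 0.70 ± 0.13 under 3p (0.0407), 0.54 ± 0.13 under 5p (0.0388) and 0.65 ± 0.13 under SATS (0.0225), all with the set as a block and against the same scr libraries. Leaving out any 1 library of 3p, 5p or scr ended the calls under 3p and 5p, with adjusted p of 0.126 to 0.325 and 0.0754 to 0.301. Untreated cells had 169 and luciferase 75.3, near the scr library of their set, and in set 1 scr had 321 and SP 242 to 289. The pattern of the 8 genes called in any of these comparisons, with each library's value, is seen in the plot of values by siRNA.

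**Figure D2:**
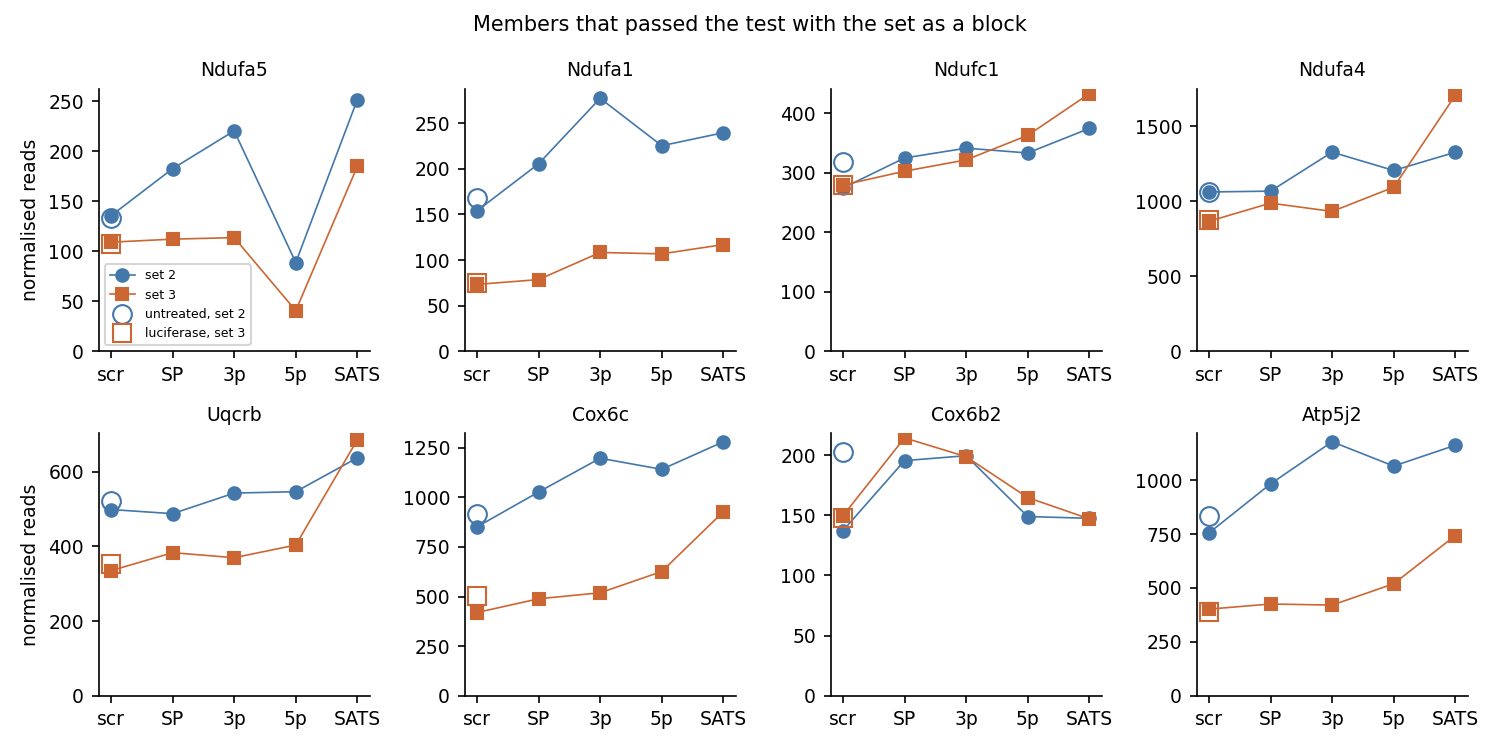
Normalised reads of the 8 genes that passed the test with the set as a block, by siRNA (x axis), with filled circles for set 2 and filled squares for set 3; open symbols are the untreated library of set 2 and the luciferase library of set 3. Ndufa5 is lowest under 5p in both sets, at 88.8 and 40.7, and Cox6c and Uqcrb are highest under SATS in both.

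By complex, the genes called under SATS with the set as a block were 4 of 44 in complex I, 0 of 8 in complex II, 1 of 8 in complex III, 1 of 16 in complex IV and 1 of 17 in complex V. Complexes are those of the gene names, so *Ndufa4* is counted in complex I. The median log2 fold changes were 0.27, 0.18, 0.27, 0.22 and 0.15. All 8 genes of complex II and all 8 of complex III had a value above 0. None of the subunits of complex II passed: *Sdha* had 0.08 ± 0.07, *Sdhb* 0.11 ± 0.08, *Sdhc* 0.06 ± 0.09 and *Sdhd* 0.24 ± 0.09, with limma adjusted p of 0.587, 0.507, 0.761 and 0.160. Its assembly factor *Sdhaf4* had the largest value of complex II, from 76.3 to 88.9 in set 2 and from 72.2 to 136 in set 3 (0.56 ± 0.17, adjusted p = 0.0875). Among the 9 genes with a value below 0 were *Atp5sl* (-0.17 ± 0.11, adjusted p = 0.457) and *Cox7a2l*, which helps join complexes into supercomplexes (-0.0067 ± 0.08, 0.972).

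The 2 sets differed in size. Over the 86 genes with a mean of at least 50, the median difference of SATS from scr of the same set was 0.14 in set 2 and 0.27 in set 3, with 71 and 75 genes higher. Untreated cells of set 2 also stood above scr of that set. By the length classes given below, 25 of 26, 21 of 25, 16 of 24 and 8 of 11 genes were higher. All 94 genes held 0.846% of reads outside *Rn45s* in scr of set 2, 0.881% in SATS and 0.893% in untreated cells. In set 3 they held 0.845% in scr, 0.960% in SATS and 0.852% under luciferase. In both sets 63 of 86 genes (73.3%) were higher and 3 (3.49%) lower, where 36.1% of 11058 genes were higher in both and 35.1% lower in both. The share higher in both was 90.2% for cytosolic ribosomal proteins, 67.6% for proteasome subunits and 54.4% for mitochondrial ribosomal proteins, whose median log2 fold changes were 0.26, 0.17 and 0.13. A few genes differed far more in set 3. *Cox7c* had a difference of 0.08 in set 2 and 0.94 in set 3, with 1231 reads in scr and 1304 in SATS of set 2 and 1376 and 2637 in set 3. *Cox7b* had 0.14 and 0.98. Without the SATS library of set 3 none of the respiratory genes was called with the block (0.0183% of all genes), and without that of set 2, 24 were (4.41%). Leaving out the scr library of set 2 or of set 3 also left 0 (0.0245% and 0.0489%).

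**Figure D3:**
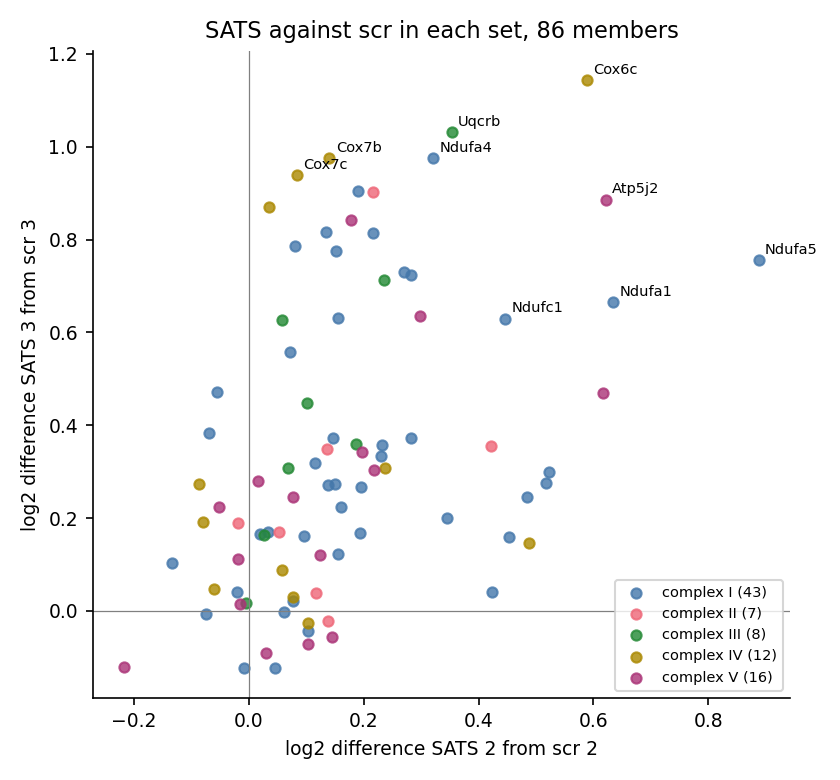
Each point is 1 of the 86 genes with a mean of at least 50 normalised reads, coloured by complex, with its log2 difference of SATS from scr in set 2 (x axis) and in set 3 (y axis). Of the points, 63 lie in the upper right, higher in both sets, and Cox7b and Cox7c are high in set 3 only.

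Transcript length moved with these differences. Respiratory genes are short: 26 of the 86 had a spliced length of up to 600 bases, 25 of over 600 and up to 1000, 24 of over 1000 and up to 2000, and 11 of more than 2000. In SATS of set 3 the median difference from scr was 0.41, 0.27, 0.17 and 0.12 in these classes, and over all other genes of the same lengths 0.33, 0.23, 0.08 and -0.04. In set 2 it was 0.17, 0.19, 0.08 and 0.05, and over other genes 0.16, 0.09, 0.02 and -0.01. In each class and set under SATS the median of the respiratory genes stood above that of the other genes. The same held in untreated cells of set 2, with 0.13, 0.11, 0.04 and 0.08 for respiratory genes and 0.02, 0.06, 0.02 and -0.02 for other genes. Over other genes, the order by length seen under SATS was also seen under 3p in set 2 (0.21, 0.10, 0.02 and -0.03) and not in set 3 (-0.06, -0.04, -0.04 and 0.01). It was also seen over other genes under SP in set 2 (0.07, 0.02, -0.0013 and -0.0063). The respiratory genes had 0.22, 0.23, 0.07 and 0.10 under 3p in set 2. Under 5p in set 3 they had 0.19, 0.16, 0.11 and 0.03, and other genes 0.08, 0.10, 0.03 and -0.03. The part of length in the result was not tested.

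**Figure D4:**
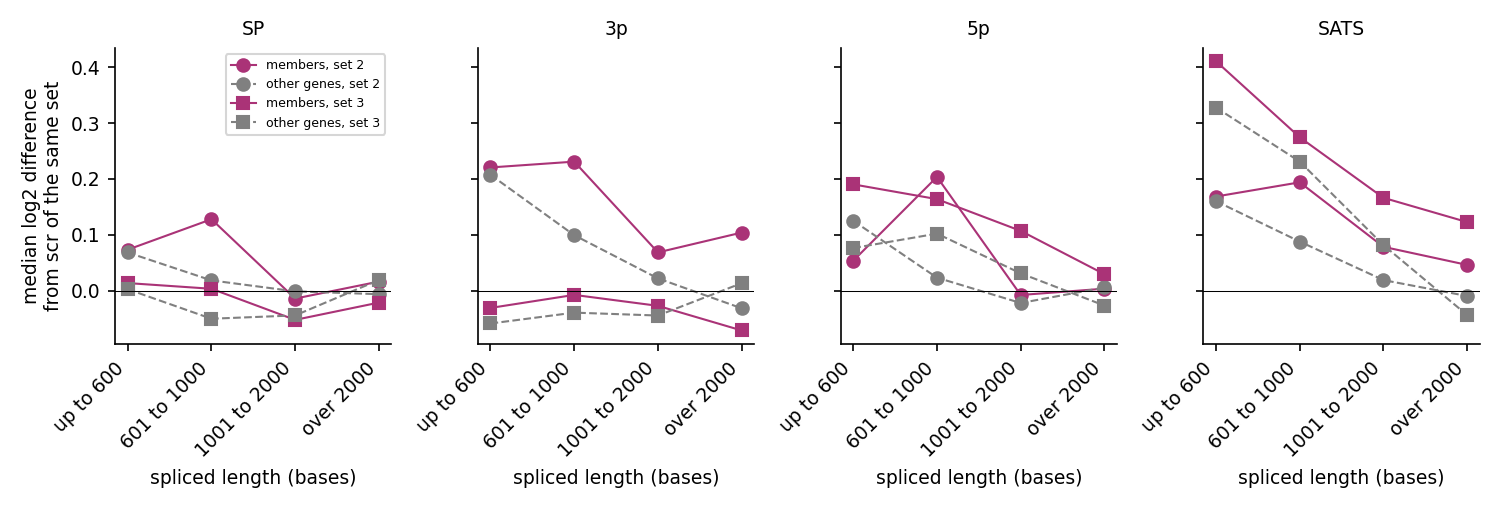
Median log2 difference from scr of the same set (y axis) by spliced length of the transcript (x axis), for the 86 respiratory genes (purple, solid) and all other genes with a mean of at least 50 (grey, dashed), with circles for set 2 and squares for set 3. Under SATS the medians are lower in the longest class than in the shortest for both groups of genes, 0.12 against 0.41 for respiratory genes in set 3.

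SATS was also set against the mean of SP, 3p and 5p, a comparison chosen after seeing the data, which uses no scr library. Without a block it called 0 of the 93 genes in limma (16 with an unadjusted p under 0.05), against 0.00606% of all genes. With the set as a block, 17 passed, 16 higher and 1 lower, against 9.36% of all genes. The largest were *Ndufa5* at 0.95 ± 0.14 (limma adjusted p = 0.00227), *Ndufs4*, a subunit of the electron input module of complex I, at 0.61 ± 0.11 (0.00542), and *Uqcrb* at 0.55 ± 0.11 (0.00816). For *Ndufa5* the mean of SP, 3p and 5p includes its fall under 5p. Against scr with the set as a block, *Ndufa5* had 0.23 ± 0.17 under SP, 0.38 ± 0.17 under 3p and -1.002 ± 0.17 under 5p. The gene that was lower was *Cox6b2*, at -0.33 ± 0.09 (0.0312).

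Under 5p, *Ndufa5* was the 1 respiratory gene called lower than scr, with the set as a block. Of the 86 genes with a mean of at least 50, 10 (11.6%) were below scr in both sets, against 33.5% of all genes. *Ndufa5*, an accessory subunit of the peripheral arm of complex I, was at 135 normalised reads in scr, 182 in SP, 220 in 3p, 88.8 in 5p and 252 in SATS of set 2. In set 3 it was at 109, 112, 114, 40.7 and 185. Untreated cells had 133, luciferase 107, and the libraries of set 1 288 to 324. The 2 libraries of 5p were the lowest of their sets, and SATS the highest of both. The log2 fold change from scr was -1.002 ± 0.17 (limma with the set as a block, adjusted p = 0.00622), with -0.60 in set 2 and -1.40 in set 3. Against 3p it was -1.38 ± 0.17 (adjusted p = 0.000728), and that call held without each of the 4 libraries of 5p and 3p in turn, with -1.63 to -1.13. The call against scr was lost without the scr or 5p library of set 3, at adjusted p of 0.202 and 0.129. The part of the 4 heptamer matches printed above in the fall was not tested. None of the 7 genes with the heptamer in the 3′ UTR passed with the block under 5p, against scr or against 3p. Against scr they ran from -0.18 ± 0.08 (*Ndufb8*, adjusted p = 0.311) to 0.15 ± 0.13 (*Uqcr11*, 0.647), and against 3p from -0.32 ± 0.08 (*Ndufb8*, 0.0570) to 0.31 ± 0.13 (*Ndufb5*, 0.237). Apart from *Ndufa5*, the genes with the heptamer only elsewhere in a coding transcript did not pass either. Against scr these ran from -0.38 ± 0.12 (*Ndufaf6*, limma adjusted p = 0.137) to 0.25 ± 0.11 (*Cox6a1*, 0.270). Against 3p they ran from -0.39 ± 0.13 (*Ndufs4*, 0.144) to 0.31 ± 0.17 (*Atp5s*, 0.431).

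Over all 93 genes, 79 had a log2 fold change above 0 under 5p, with a median of 0.10. Without a block 0 passed in limma (2 with an unadjusted p under 0.05), against 0.0121% of all genes, and with the block 2 did, *Ndufa5* and *Ndufa1*, against 2.37%. The share called with the block was near that of all genes. In the comparison of 5p with 3p, 0 passed without a block (4 unadjusted), against 0% of all genes, and 1 with it, against 3.26%. The median differences of complexes III and IV from scr were -0.01 and -0.01 in set 2 and 0.16 and 0.25 in set 3. *Atp5k*, subunit e of the ATP synthase, had 0.45 ± 0.15 (adjusted p = 0.148), from 296 to 472 in set 2 and 187 to 219 in set 3. Under the same limits, the largest values of complexes IV, II and III under 5p were those of *Cox6c* (0.50 ± 0.13, adjusted p = 0.0650), *Sdhaf4* (0.34 ± 0.17, 0.352) and *Uqcrb* (0.20 ± 0.13, 0.505).

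Under SP the respiratory genes stayed near scr. Over 3 sets, with the mean of SP 1a, 1b and 1c for set 1, the median log2 fold change was 0.03 and 54 of 93 genes were above 0. limma called 0 of them without a block (0 with an unadjusted p under 0.05), against 0% of all genes, and 0 with it (1 unadjusted), against 0%. Over sets 2 and 3 the median was 0.02, with 0 called without a block (1 unadjusted), against 0.00606% of all genes, and 1 with it, against 0.746%. This gene was *Cox6b2* (chr7:4751792-4753094), the testis isoform of the subunit that lies between the monomers of the complex IV dimer. It was at 137 in scr, 195 in SP, 199 in 3p, 149 in 5p and 147 in SATS of set 2, and at 150, 214, 199, 165 and 147 in set 3 (SP against scr 0.51 ± 0.11, limma adjusted p = 0.0465). SP and 3p, which share siRNAs by the methods, were above 5p, SATS and scr in both sets. But untreated cells of set 2 had 202, above scr and level with SP, and in set 1 scr had 395 and SP 234 to 415. Leaving out any 1 of the 4 libraries of SP and scr ended the call, with adjusted p of 0.203 to 0.441. Among genes with a mean of at least 50 that went the same way in both sets, the largest values of the other complexes under SP were those of *Ndufa13*, a subunit of complex I (0.37 ± 0.11, adjusted p = 0.168), *Atp5j2* (0.23 ± 0.14, 0.544), *Sdhaf4* (-0.15 ± 0.17, 0.771) and *Uqcrq* of complex III (-0.13 ± 0.13, 0.734). *Ndufa13* was at 416 in scr and 622 in SP of set 2, and at 293 and 328 in set 3.

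The 3 SP libraries of set 1 differed among themselves. The median difference from scr 1 over the 86 genes was 0.07 in SP 1a, 0.05 in SP 1b and -0.20 in SP 1c, where 66 of 86 genes were lower. SP 1c was the shallowest library, with 1883691 reads outside *Rn45s*, and the 94 genes held 0.651% of them. With SP 1c in place of the mean of set 1, the median over 3 sets was -0.04. *Ndufa4l2*, a paralog of *Ndufa4* known to rise in low oxygen, was at 161 in scr 1, 75.2 in SP 1a, 103 in SP 1b and 8.05 in SP 1c, from 1 read in the last, and at 3.97 to 16.6 in the other sets. Of the *Sdh* subunits, *Sdhd* was at 844 in scr 1 and 423 to 505 in the SP libraries of set 1, and at 1006 to 1157 in scr and SP of the other sets (-0.25 ± 0.19 over 3 sets with the set as a block, limma adjusted p = 0.766). Set 1 had 1 scr library, so its spread among controls is not known.

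Under 3p the 2 sets went different ways. The median difference from scr over the 86 genes was 0.17 in set 2, with 76 higher, and -0.027 in set 3, with 34 higher. The fitted median was 0.07, and 0 genes were called without a block in limma (2 unadjusted), against 0.00606% of all genes, and 1 with it, *Ndufa1*, against 0.285%. Complex V had the widest gap, 0.17 in set 2 and -0.06 in set 3, and complex IV alone was above 0 in both, at 0.13 and 0.06. *Cox6c* had 0.40 ± 0.13 (adjusted p = 0.276) and *Cox6b2* 0.47 ± 0.11 (0.0891). *Atp5j2* had 0.35 ± 0.14 (0.395), *Sdhaf4* 0.26 ± 0.17 (0.627) and *Uqcrb* 0.13 ± 0.13 (0.786).

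**Figure D5:**
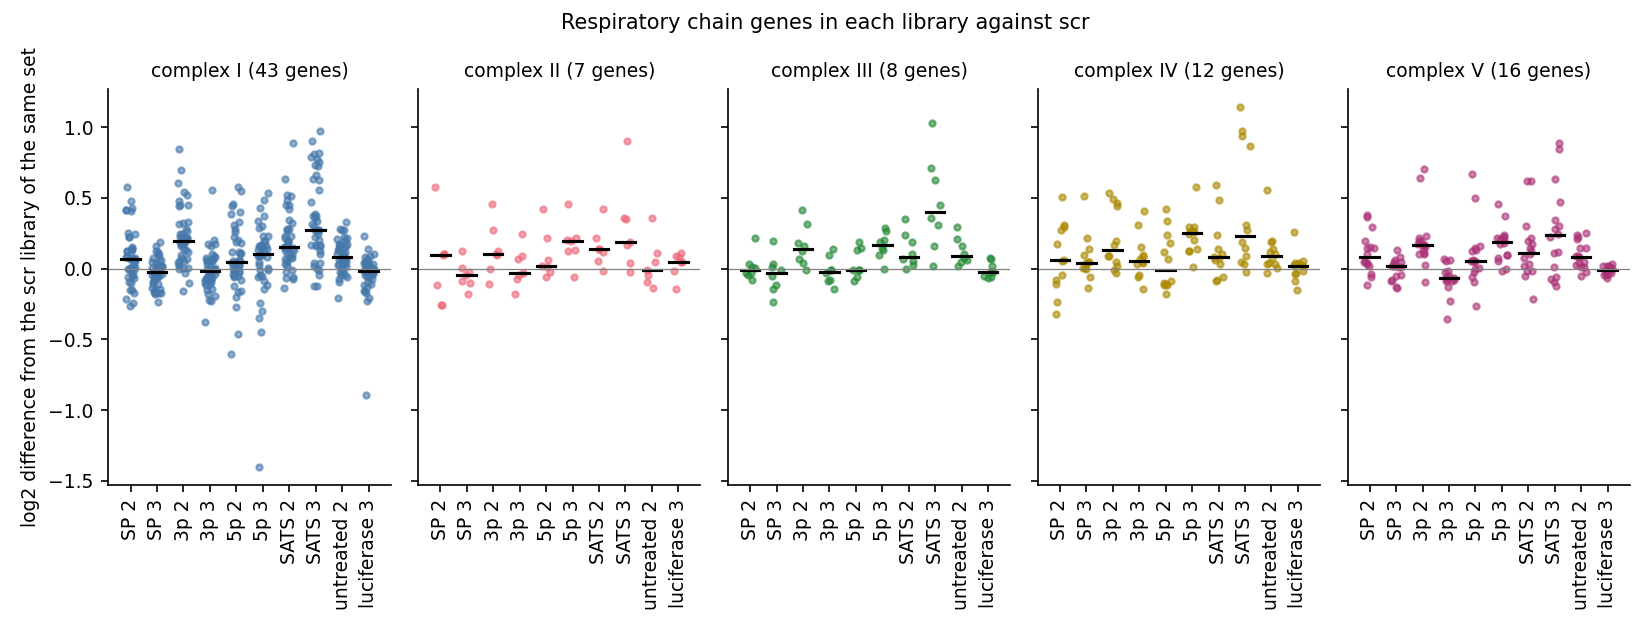
Log2 difference of each library from the scr library of its set (y axis), by library (x axis) and complex (panels); points are the 86 genes with a mean of at least 50 normalised reads and bars their medians. SATS medians are above 0 in all panels in both sets, 3p medians are above 0 in set 2 only except in complex IV, and the lowest point of complex I is Ndufa5 in 5p of set 3, at -1.40.

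All 8 knockdown libraries of sets 2 and 3 were also compared with the 4 controls. The median over the 93 genes was 0.09, with 76 above 0. limma called 0 without a block (3 unadjusted), against 0% of all genes, and 0 with it (17 unadjusted), against 0.204%, and *Ndufa1* came nearest, at 0.50 ± 0.10 (adjusted p = 0.0788). Against scr, the luciferase library had a fitted median of -0.0070 and the untreated one 0.08. Each is 1 library, taken to vary as the other groups do, and limma with the set as a block called 0 of 93 in both (1 unadjusted in each), against 0.00599% and 0% of all genes. *Ndufaf7*, which encodes a methyltransferase that acts on complex I, was at 124 under luciferase and 208 to 231 in the other libraries of set 3 (-0.81 ± 0.14, limma adjusted p = 0.213).

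The replicate sets differed at many of these genes. Between the 5 libraries of set 3 and the 5 of set 2 with the same siRNAs, 45 of 93 genes passed in limma with the siRNA as a covariate, against 51.6% of all genes, 14 of them higher in set 3 (24.2% of all genes) and 31 lower (27.4%). The share called was near that of all genes. The largest falls were in complexes I, IV and V. *Ndufa1* averaged 220 in set 2 and 96.8 in set 3 (log2 -1.18 ± 0.08, limma adjusted p = 4.49e-08). *Cox6a1*, a subunit of complex IV, averaged 1356 and 604 (-1.16 ± 0.07, 1.02e-08), and *Atp5j2* 1029 and 502 (-1.06 ± 0.09, 3.90e-07). *Atp5k* had -1.03 ± 0.09 and *Ndufb10*, of the membrane arm of complex I, -0.99 ± 0.08. No value of these genes in set 3 reached the lowest in set 2. The largest rises were those of *Cox7a2* (0.40 ± 0.09), *Sdhaf3* (0.39 ± 0.12), *Cox7b* (0.38 ± 0.09), *Ndufaf6* (0.35 ± 0.08) and *Cox7c* (0.32 ± 0.11). The fibroblast markers moved with the sets as given above; their part was not tested.

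Genes of the wider pathway were counted from lists of factors that assemble complexes I, III, IV and V, carry electrons, regulate mitochondrial genes or form the tricarboxylic acid cycle. Under SATS with the set as a block, limma called 0 of 21 complex IV assembly factors, 0 of 11 other complex I factors, 3 of 13 factors of complexes III and V, 0 of 18 genes of electron carriers and coenzyme Q synthesis, 1 of 19 regulators and 1 of 16 of the cycle, against 2.64% of all genes; without a block none passed. Those called were all higher: *Slirp*, which stabilises mitochondrial mRNA (0.77 ± 0.17, adjusted p = 0.0324), *Atpif1*, the inhibitor of the ATP synthase (0.63 ± 0.15, 0.0375), *2010107E04Rik* (0.55 ± 0.12, 0.0320), *Dld*, a dehydrogenase component (0.51 ± 0.08, 0.0134) and *Tmem70*, an assembly factor of the ATP synthase (0.45 ± 0.10, 0.0356). Under 5p with the block, where 2.37% of all genes were called, 4 genes of these lists were lower and none higher, and without it none passed: *Cox10*, which makes heme O for complex IV (-0.62 ± 0.10, adjusted p = 0.00376), *Ttc19* and *Uqcc2*, which serve complex III (-0.58 ± 0.10, 0.00769, and -0.53 ± 0.13, 0.0461), and *Suclg1* of the cycle (-0.42 ± 0.08, 0.0104). No gene of the lists passed under SP or 3p.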

How the data were processed

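Samples and sets were taken from the labels. The deposited signal is, per the methods, featureCounts reads on mm10 (HISAT2) that the authors divided by DESeq2 (1.14.1) size factors. Dividing by the value of 1 read gave whole reads for 100% of values (tolerance 0.001). The authors' second table, CPM of set 1, was not used, and the libraries of 2i cells were not analysed here. Reads were counted by strand for paired-end libraries only, and which libraries those are is not given in the sources used here, so genes that overlap another on the opposite strand are uncertain.

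Log2(signal + 1) was fitted with limma 3.58.1, with a trended prior, in R 4.3.3. Genes needed a summed signal of at least 10, and p was adjusted by Benjamini-Hochberg over all of them, with a threshold of 0.05. The planned model of the knockdowns had no block. Deviations of scr and SP of the same set from their group means correlated at 0.77 to 0.82 in the 3 sets, and the design text speaks of replicate sets, so the numbers pair the libraries and the set was also fitted as a block. Comparisons of 3p, 5p and SATS, and of SP in sets 2 and 3, came from 1 model of 10 libraries. edgeR 4.0.16 and DESeq2 1.42.0 on recovered reads, other pseudocounts and filters were alternatives. On simulated data for SATS against scr (16514 genes), limma with the block recovered 82% of 50 genes raised 2-fold and 80% of 50 lowered 2-fold, and without it 0% of both. Of 15335 unchanged genes, 7 were called with the block and 0 without. The simulation gave each gene a shift shared by all libraries of a set, and each changed gene the same fold in both sets. In the real data the SATS difference varied between the sets, so the simulation cannot show how the block fares here.

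The members, lists and tests were chosen with earlier results of these data known. Named genes were members called in any comparison (for over 10, the 5 largest each way), the largest change per complex and siRNA among members with a mean of at least 50 that moved the same way in both sets, the highest and lowest level per complex, the *Sdh* subunits, isoform families and *Stag1*; others were named after their values were seen. Lengths and coordinates are from GENCODE M21 (GRCm38). Values rest on reads without molecular identifiers, so depth bounds counting error only.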

Additional observations from a re-analysis of the deposited data

Results flagged for a closer look

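Among the 5 SP libraries, 3 of 38 named genes had 1 library far from the others: *Ndufb10* in SP 3, at 197 normalised reads against 462 to 517 (the other libraries of set 3 held 214 to 241), *Cox7c* in SP 1a, at 1584 against 1256 to 1328, and *Sdhaf4* in SP 1b, at 90.05 against 63.7 to 70.5. The rule flags about 1 in 20 where 5 values come from 1 distribution. These libraries come from 3 sets that differ, so that rate does not hold here. *Ndufb10* was named for its fall in set 3, so its flag in SP 3 is no separate result. Counting error of *Sdhaf4* is large, with 8 reads in scr 1.

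Medians of the log2 difference from scr had opposite signs in sets 2 and 3 in 10 cases, a difference that was not tested. Under SP these were 0.06 and -0.0024 over the 86 genes, 0.07 and -0.025 in complex I, and 0.10 and -0.047 in complex II. Under 3p they were 0.17 and -0.027 over the 86 genes, 0.20 and -0.019 in complex I, 0.11 and -0.030 in complex II, 0.14 and -0.020 in complex III, and 0.17 and -0.065 in complex V. Under 5p they were -0.01 and 0.16 in complex III and -0.01 and 0.25 in complex IV.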

How the results depend on the processing

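Without a block, 0 members were called in each knockdown comparison under every pseudocount, filter, scaling and tool tried and without any 1 library. The replicate block raised the number called from 0 to 1 under SP in sets 2 and 3, 1 under 3p, 2 under 5p, 7 under SATS and 1 for 5p against 3p, and edgeR with the block gave 1, 1, 2, 12 and 2. It changed no other call. With untreated and luciferase added to scr, chosen after seeing the data like the next range, the block gave 0, 1, 8, 26 and 2, the 26 under SATS against 10.7% of all genes. Leaving out each library with the block gave 0 to 0 under SP, 0 to 0 under 3p, 0 to 2 under 5p, 0 to 24 under SATS, 1 to 1 for 5p against 3p, 0 to 2 for SP over 3 sets and 0 to 1 for any knockdown. The cause of these changes was not tested. Counts in this section without the share of all genes beside them have no background to be read against.

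The median of the members was -0.039 for SP over 3 sets with SP 1c in place of the mean of set 1. Without each library in turn and no block it ran from -0.039 to 0.052 for SP over 3 sets, -0.045 to 0.058 for SP in sets 2 and 3, -0.05 to 0.19 for 3p, 0.05 to 0.12 for 5p, 0.14 to 0.30 for SATS, -0.11 to 0.16 for 5p against 3p and 0.06 to 0.12 for any knockdown. With the block it ran from -0.0046 to 0.022, -0.023 to 0.067, -0.05 to 0.21, 0.06 to 0.16, 0.11 to 0.32, -0.10 to 0.16 and 0.04 to 0.11. For set 3 against set 2, without each pair, 37 to 44 members were called and the median ran from -0.07 to 0.02. Only 2 libraries per siRNA in sets 2 and 3, and the low depth of set 1, limit what could be detected.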
